A study of Mus musculus with 16 samples.

Results

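The Ink4 locus and the p53 pathway are the routes by which cultured mouse fibroblasts stop dividing, and 10 of their genes were followed here through immortalised mouse embryonic fibroblast (MEF) lines. The genes were Cdkn2a and Cdkn2b of the Ink4 locus and the p53 target genes Cdkn1a, Mdm2, Ccng1, Sesn2, Bax, Eda2r, Zmat3 and Phlda3, given by symbol and found among the 54453 genes of the expression table. All 10 were matched to an identifier of the mm10 annotation, and all 10 passed the filter on low values (a mean above 0 over the 16 lines). Total RNA was sequenced from 16 lines. MEF-1 and MEF-2, the parental lines, were each raised from an E13.5 C57BL/6J embryo, the embryos being siblings. MEF-1 came from a male and MEF-2 from a female embryo, and both were taken through crisis by serial passage, with no transgene named. From each parental line 7 single cells were sorted by flow cytometry and expanded into clonal lines, so that every clonal line is 1 clone and has 1 library. Embryo, sex and immortalisation event therefore cannot be told apart in any difference between MEF-1 and MEF-2 lines, and a p-value between them measures only the spread among clones of each.

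Cdkn2b encodes p15Ink4b, and Cdkn2a encodes p16Ink4a and, from another first exon and reading frame, p19Arf. The Ink4 proteins inhibit the cyclin D kinases CDK4 and CDK6 and so keep RB active, whereas Arf binds MDM2, the ubiquitin ligase that degrades p53. Stabilised p53 raises transcription of p21 (Cdkn1a) and of genes of repair and apoptosis, and fibroblasts that grow out of crisis often carry a lesion in Arf or p53. No sequence of these genes was read in the lines, so mutations were not analysed here.

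The sequences of 2 Cdkn2a transcripts are shown because the table holds only 1 value for the gene, to which both contribute. Each stretch joins the last 30 bases of a first exon, in lower case, to the first 30 bases of exon 2, in capitals (mm10, chromosome 4, minus strand, mature RNA written as DNA from 5′ to 3′). The first exon of Cdkn2a-201, the Ink4a form, lies at chr4:89281986-89282192 and has 207 bases. That of Cdkn2a-202, the Arf form, lies upstream at chr4:89294334-89294653 and has 320 bases. Both are spliced to the exon at chr4:89276645-89276985.
Cdkn2a-201: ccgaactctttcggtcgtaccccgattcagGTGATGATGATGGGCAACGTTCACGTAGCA
Cdkn2a-202: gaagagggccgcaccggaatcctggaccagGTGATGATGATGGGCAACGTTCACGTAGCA
The capitals are the same in both, but the coding sequence enters them in a different frame, with 0 bases before the next codon in Cdkn2a-201 and 2 in Cdkn2a-202. The Ink4a and Arf forms were not separated in the values below.

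Promoter stretches are shown for the p53 target genes whose start is preceded by the p53 consensus decamer, since p53 acts on these genes through such elements. RefSeq windows (GRCm38.p6, 250 bases before to 50 after a transcript start) were present for 9 of the 10 genes, with 11 windows in all, and Zmat3 had no entry. The decamer, the repeat unit of the p53 consensus, whose pattern is its own reverse complement, was found in 4 of the 11 windows (36.4%), 1 window each of Bax, Mdm2, Ccng1 and Cdkn1a. Over all genes it was found in 2745 of 32851 windows (8.36%). In capitals are the decamers, and each stretch is read on the strand of its gene.
Cdkn1a: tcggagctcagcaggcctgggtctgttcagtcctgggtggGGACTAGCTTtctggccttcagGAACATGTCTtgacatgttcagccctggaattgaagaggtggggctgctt
Ccng1: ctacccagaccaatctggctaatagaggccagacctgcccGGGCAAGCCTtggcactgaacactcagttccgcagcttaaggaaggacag
Mdm2: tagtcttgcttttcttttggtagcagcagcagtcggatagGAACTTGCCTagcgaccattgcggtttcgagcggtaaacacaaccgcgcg
Bax: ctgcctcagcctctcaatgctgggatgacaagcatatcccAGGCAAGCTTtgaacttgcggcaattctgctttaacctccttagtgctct
The Cdkn1a stretch lies at chr17:29090866-29090977 on the plus strand, with its decamers from 73 to 64 and from 51 to 42 bases before the more upstream start. The other Cdkn1a window, at chr17:29093519-29093818, held none. A pair within 13 bases of each other, as there, was found in 24 of all windows (0.0731%). The stretch of Ccng1 lies at chr11:40755422-40755511 with the decamer 185 to 176 bases before the start, that of Mdm2 at chr10:117710895-117710984 (186 to 177 bases) and that of Bax at chr7:45467050-45467139 (201 to 192 bases), all on the minus strand. A match of letters is a description of the window and not a binding site, and the other genes may hold such elements elsewhere.

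Values are the deposited regularised log2 (rlog) values, in which differences of weakly or noisily measured genes are shrunken, so that a fold change from them tends to understate the change. They are not divided by transcript length, and levels are therefore compared between lines for 1 gene at a time and never between genes. In bulk RNA, fewer cells with a transcript and less of it per cell cannot be told apart. Fibroblast markers were read as a check of the label. All 10 markers, Col1a1, Col1a2, Col3a1, Pdgfra, Pdgfrb, Vim, Thy1, Dcn, Lum and S100a4, were above 0 in the lines. However, 4 of them (Dcn, Lum, Pdgfra and Col3a1, 40%) were lower and 1 (Thy1, 10%) higher in MEF-2 than in MEF-1 clonal lines. Of all genes tested between these clonal lines 28.6% were lower and 27.5% higher, and the neural calls below are to be read against the same shares. Of the markers of other cell types, those at or below 0 in every line were 1 of 6 epithelial, 0 of 5 endothelial, 3 of 6 haematopoietic, 4 of 6 muscle and 2 of 5 neural genes. Of the neural genes, Tubb3 (9.48 to 10.76 in MEF-1 and 11.66 to 12.96 in MEF-2 clonal lines) and Gfap (1.20 to 1.51 and 1.73 to 2.25) were called higher in MEF-2, and Sox2 (1.45 to 7.46 and 1.21 to 1.67) was called lower. Among the epithelial genes, Cdh1 was at 6.86 to 8.41 in MEF-1 and 6.50 to 8.37 in MEF-2 clonal lines and was not called. The part of these markers in the results below was not tested.

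Between the 7 clonal lines of MEF-2 and the 7 of MEF-1, both Ink4 locus genes were lower in MEF-2 and 7 of the 8 p53 target genes were higher, with Sesn2 the one that did not pass the test (limma, Benjamini-Hochberg adjusted over 15285 protein-coding genes, threshold 0.05). This is to be read against a background in which 56.1% of all genes tested passed, 27.5% as higher and 28.6% as lower in MEF-2. Clones of MEF-1 and MEF-2 did not overlap for 7 of the 10 genes, against 25.9% of all genes tested. Among those tested, 3.35% were called with a difference at least as large as that of Cdkn2a, and 2.18% at least as large as that of Cdkn1a.

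**Figure D1:**
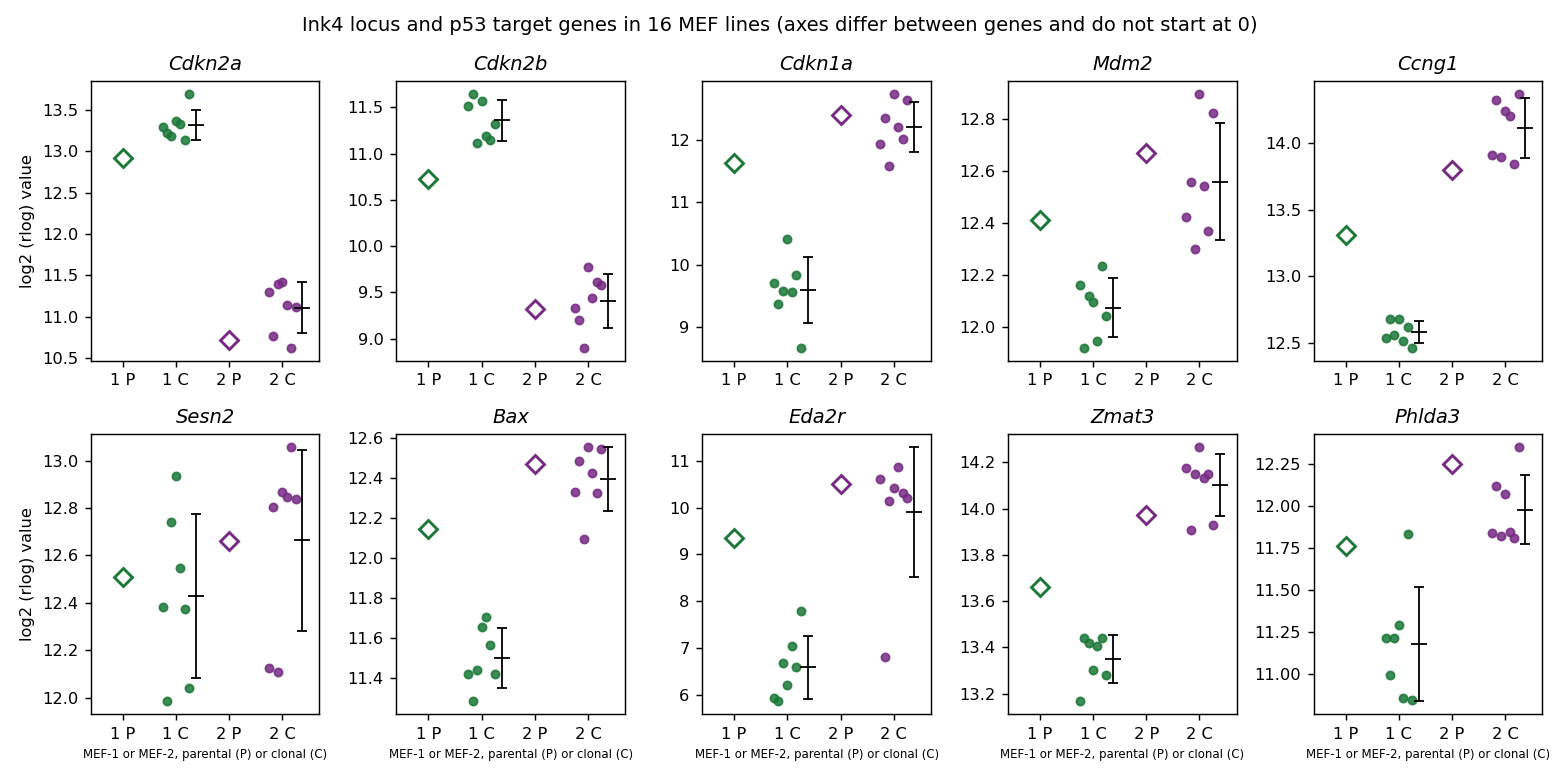
Log2 (rlog) value of each of the 10 genes (vertical axes, which differ between genes and do not start at 0) in the parental line (open diamond, P) and the 7 clonal lines (points, C) of MEF-1 (green, 1) and MEF-2 (purple, 2), with the mean and SD of the clonal lines as bars. Cdkn2a and Cdkn2b lie lower in MEF-2 than in MEF-1, the p53 target genes other than Sesn2 lie higher, and 1 MEF-2 clone lies among the MEF-1 clones for Eda2r.

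Cdkn2a (ENSMUSG00000044303, chr4:89274471-89294653, minus strand) was 12.92 in the MEF-1 parental line and ranged from 13.14 to 13.70 among its clones, with a median of 13.29. In the MEF-2 parental line it was 10.72, and its clones ranged from 10.62 to 11.42 with a median of 11.14. Every MEF-1 line was thus above every MEF-2 line, the parental ones included, and 1.72 separated the lowest MEF-1 from the highest MEF-2 clone. The mean fell from 13.32 ± 0.18 (SD, n = 7) in MEF-1 to 11.11 ± 0.31 (SD, n = 7) in MEF-2 clonal lines, a difference of -2.21 (SE 0.13, limma adjusted p = 2.84e-09), or 4.63-fold higher in MEF-1. An exact two-sided permutation test over the 3432 splits of the 14 clonal lines gave p = 0.000583, the smallest it can give.

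Cdkn2b (ENSMUSG00000073802, chr4:89306299-89311039, minus strand), which lies upstream of Cdkn2a with 11645 bases between them, followed the same order. It was 10.73 in the MEF-1 parental line and 11.11 to 11.65 in its clones (median 11.32). In MEF-2 the parental line was at 9.33 and the clones at 8.90 to 9.78 (median 9.44). No MEF-2 line reached the level of any MEF-1 line. The means of the clonal lines were 11.36 ± 0.22 and 9.41 ± 0.29 (SD, n = 7 each), a difference of -1.95 (SE 0.13, limma adjusted p = 1.60e-08, exact permutation p = 0.000583) or 3.86-fold.

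Genes on either side of the locus showed smaller differences. Within 1 Mb of Cdkn2a or Cdkn2b lay 14 other protein-coding genes with a mean above 0, of which 4 were lower in MEF-2 clonal lines, 2 were higher and 8 did not pass the test. These are 28.6% and 14.3% of the neighbours, against 28.6% lower and 27.5% higher of all genes tested. Mtap, which encodes an enzyme of methionine salvage and is often deleted along with Cdkn2a in tumours, was 12.90 ± 0.093 in MEF-1 and 13.03 ± 0.095 in MEF-2 clonal lines (SD, n = 7), a difference of 0.13 with limma adjusted p = 0.0427. Hacd4, an enzyme of fatty acid elongation, was lower in MEF-2 by 0.67 on the log2 scale (limma adjusted p = 4.31e-06) and was the only neighbour without overlap between the clonal lines. Focad was -0.16 (adjusted p = 0.00632), Gm26566 -0.40 (adjusted p = 0.00642), Dmrta1 -0.59 (adjusted p = 0.00546) and Klhl9 0.14 (adjusted p = 0.0276) in the limma fit. Gm26566 and Klhl9 overlap on opposite strands. The 8 not called were the interferon gene Ifnz and 7 predicted genes clustered around it (Gm13283, Gm13290, Gm13272, Gm13276, Gm13285, Gm13287 and Gm13288), and where members of this cluster are alike, reads may have been split between them. The 2 calls of higher neighbours were small and did not survive all settings, with 0 called when lines were centred on their autosomal median and 0 without MEF-1 clone 4, although 2 had unadjusted p under 0.05 in each.

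Upstream of the p53 targets, Trp53 itself, which encodes p53, was at 12.32 to 12.80 (median 12.64) in MEF-1 and at 13.31 to 13.74 (median 13.52) in MEF-2 clonal lines, without overlap. The parental lines were at 12.90 (MEF-1) and 13.58 (MEF-2). Clonal lines differed by 0.95 (SE 0.080, limma adjusted p = 1.74e-07), or 1.93-fold. Mdm4, an MDM2 partner that restrains p53, was 11.88 to 12.44 in MEF-1 and 12.74 to 12.90 in MEF-2 clonal lines, again without overlap (difference 0.54, SE 0.071, limma adjusted p = 1.54e-05). A transcript level of Trp53 says nothing of the protein, which is mainly set by its degradation.

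Mdm2 (ENSMUSG00000020184, chr10:117688875-117710758), both the negative regulator of p53 and one of its targets, was 12.41 in the parental line of MEF-1 and 12.67 in that of MEF-2. Clones ranged from 11.92 to 12.23 (median 12.10) in MEF-1 and from 12.30 to 12.90 (median 12.54) in MEF-2. The clonal sets did not overlap, but only 0.068 lay between them, and the MEF-1 parental line fell within the range of the MEF-2 clones. The difference was 0.49 (SE 0.090, limma adjusted p = 0.00036, exact permutation p = 0.000583), which is 1.40-fold. In MEF-2 clone 4, where Mdm2 was highest, the median of the 661 chromosome 10 genes was also high, at 0.14 above the mean of the clonal lines, and its part in the Mdm2 value was not tested.

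Cdkn1a (ENSMUSG00000023067, chr17:29090976-29100727), which encodes the cyclin-dependent kinase inhibitor p21 and is the main effector of arrest by p53, had the largest difference of the genes without overlap. It was 11.63 in the MEF-1 parental line but 8.66 to 10.41 (median 9.57) in its clones. MEF-2 had 12.38 in the parental line and 11.58 to 12.73 (median 12.20) in the clones. The clonal sets were 1.17 apart at their closest, and the MEF-1 parental line stood above all clones of its own set, just inside the lower end of the MEF-2 clones. The means of 9.59 ± 0.53 and 12.20 ± 0.40 (SD, n = 7 each) gave a difference of 2.61 (SE 0.23, limma adjusted p = 2.52e-07, exact permutation p = 0.000583), a 6.12-fold higher level in MEF-2.

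**Figure D2:**
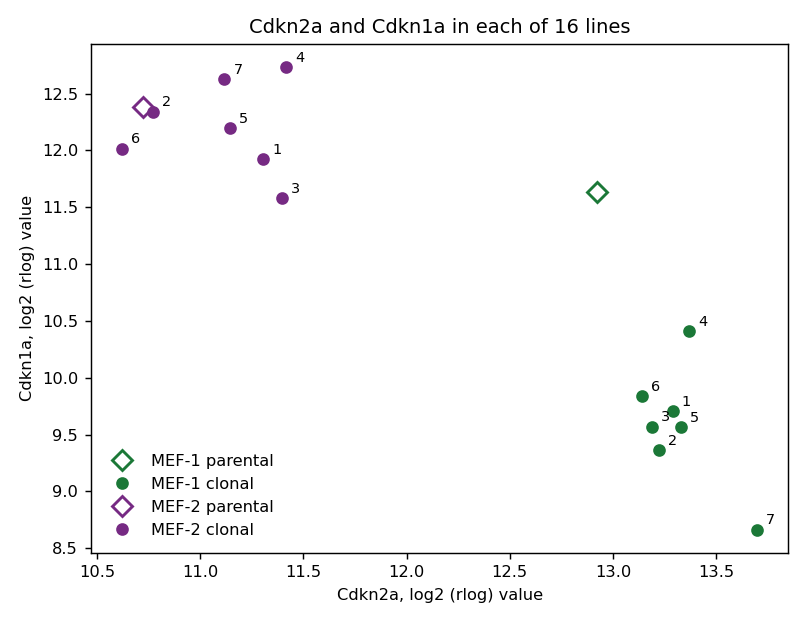
Cdkn2a (horizontal axis) against Cdkn1a (vertical axis), both as log2 (rlog) values, in each of the 16 lines, with clone numbers beside the points and parental lines as open diamonds. MEF-1 clones lie at high Cdkn2a (13.14 to 13.70) and low Cdkn1a (8.66 to 10.41), MEF-2 clones at low Cdkn2a (10.62 to 11.42) and high Cdkn1a (11.58 to 12.73), and the MEF-1 parental line has high Cdkn2a (12.92) with a Cdkn1a of 11.63.

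Ccng1 (ENSMUSG00000020326, chr11:40748552-40755311), the gene of cyclin G1, a p53-induced regulator of MDM2, was the most evenly expressed of the genes among MEF-1 clones, at 12.46 to 12.68 (median 12.56). MEF-2 clones ranged from 13.84 to 14.37 (median 14.20). The parental lines, at 13.31 in MEF-1 and 13.80 in MEF-2, both lay in the gap between the clonal sets. Between these the difference was 1.53 (SE 0.085, limma adjusted p = 2.31e-09, exact permutation p = 0.000583), or 2.90-fold.

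Bax (ENSMUSG00000003873, chr7:45461697-45466898), whose product permeabilises the mitochondrial outer membrane in apoptosis, was 11.28 to 11.71 (median 11.44) in MEF-1 and 12.10 to 12.56 (median 12.43) in MEF-2 clonal lines. The parental lines were at 12.15 and 12.47. All MEF-2 clones were above all MEF-1 clones, and the MEF-1 parental line was with the former. The difference of 0.90 (SE 0.080, limma adjusted p = 3.04e-07, exact permutation p = 0.000583) was 1.86-fold.

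Zmat3 (ENSMUSG00000027663, chr3:32334792-32366014), which encodes a zinc finger RNA-binding protein of the p53 response, ranged from 13.17 to 13.44 (median 13.40) in MEF-1 and from 13.91 to 14.27 (median 14.15) in MEF-2 clonal lines. In the parental lines it was 13.66 and 13.97. The clonal lines did not overlap, and MEF-2 was higher by 0.75 (SE 0.063, limma adjusted p = 1.72e-07, exact permutation p = 0.000583), which is 1.68-fold.

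Phlda3 (ENSMUSG00000041801, chr1:135766119-135769136), a p53-induced repressor of AKT signalling, was 10.84 to 11.83 (median 11.22) in MEF-1 and 11.81 to 12.35 (median 11.84) in MEF-2 clonal lines, with parental lines at 11.76 and 12.25. The overlap came from 1 line, MEF-1 clone 6 at 11.83, as the other MEF-1 clones did not exceed 11.29. The difference was 0.80 (SE 0.14, limma adjusted p = 0.000203, exact permutation p = 0.00175), or 1.74-fold.

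Eda2r (ENSMUSG00000034457, chrX:97333840-97377216), which encodes the receptor of ectodysplasin A2 in the TNF receptor family, showed the largest difference of the 10 genes, and also the widest spread. It was 9.34 in the MEF-1 parental line and 5.86 to 7.79 (median 6.59) in its clones. In MEF-2 the parental line was at 10.50 and the clones at 6.81 to 10.86 (median 10.31). A single line made the overlap: MEF-2 clone 2, at 6.81, was at the level of the MEF-1 clones, while the other MEF-2 clones were at 10.14 to 10.86. The difference was 3.32 (SE 0.53, limma adjusted p = 9.68e-05, exact permutation p = 0.00175), and 3.84 without MEF-2 clone 2 (limma adjusted p = 8.93e-08). The gene lies on the X chromosome, of which the embryo of MEF-2 had a different number of copies from that of MEF-1. Over 431 X chromosome genes the median was 0.093 higher in MEF-2. On the autosomes that hold the other genes this difference ran from -0.040 (chromosome 4) to 0.107 (chromosome 7). The part of X copy number in the Eda2r difference was not tested.

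Sesn2 (ENSMUSG00000028893, chr4:132492032-132510501), which encodes sestrin 2, a stress-inducible inhibitor of mTORC1 that also responds to nutrient and ER stress, was the gene without a call. Its values were 11.98 to 12.94 (median 12.38) in MEF-1 and 12.11 to 13.06 (median 12.84) in MEF-2 clonal lines, nearly the same range, with parental lines at 12.51 and 12.66. MEF-2 clones 1 and 3, at 12.12 and 12.11, lay with the lower MEF-1 clones, while the other MEF-2 clones lay at 12.80 or more. The difference was 0.23 with a 95% interval from -0.15 to 0.61 (limma adjusted p = 0.278, exact permutation p = 0.245) and so includes both 0 and differences of up to 0.61.

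**Figure D3:**
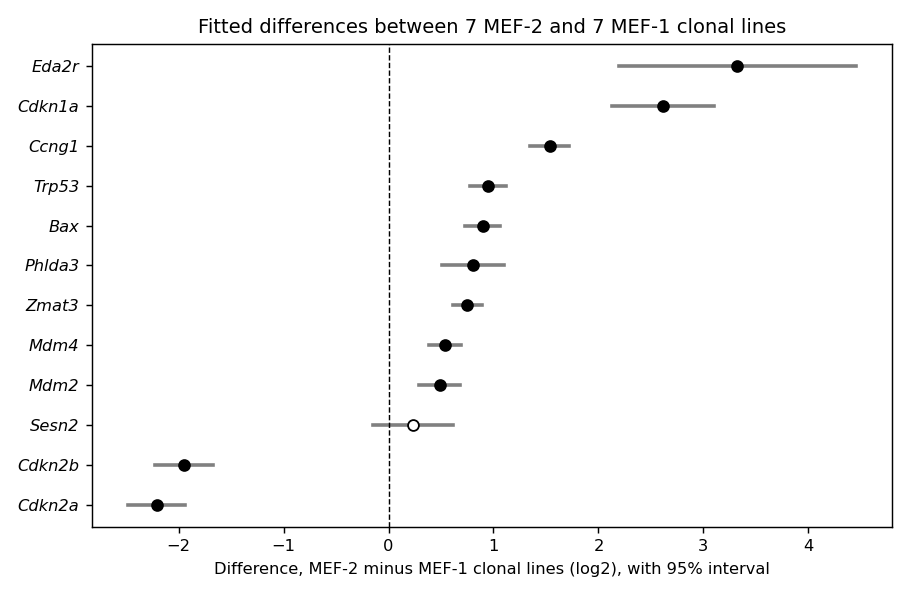
Fitted difference between the 7 MEF-2 and the 7 MEF-1 clonal lines (horizontal axis, log2) for the 10 genes and for Trp53 and Mdm4, with 95% intervals as bars; filled points have a limma adjusted p under 0.05. Cdkn2a (-2.21) and Cdkn2b (-1.95) lie to the left of 0, the interval of Sesn2 includes 0, and the others lie to the right, with the widest interval for Eda2r.

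The parental lines bear on whether the levels of the clonal lines were already there in the population from which they were taken. In MEF-1 the parental line stood outside its clones for 8 of the 10 genes. Cdkn1a, Mdm2, Ccng1, Bax, Eda2r and Zmat3 were above all 7 clones, Cdkn2a and Cdkn2b were below all 7, and Sesn2 and Phlda3 were within them. Of all genes tested, the MEF-1 parental line was above all its clones for 20.2% and below all for 20.8%. Among genes called higher in MEF-2, whose MEF-1 clones are low by that choice, the share above all was 42.1%, and among genes called lower in MEF-2 the share below all was 39.9%. In MEF-2 the parental line lay within the range of its clones for 9 of the 10 genes, the exception being Ccng1, where it lay below all 7. Of all genes tested, the MEF-2 parental line was above all its clones for 15.8%, below all for 18.5% and within them for the rest.

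With 1 library for each parental line, assumed to vary like the clonal lines, these positions were put to a 4-group limma fit. The shares of all genes given with it are those called, at an adjusted p under 0.05. For the counts at an unadjusted p under 0.05 no share of all genes was computed, so they cannot be read as an excess. None of the 10 genes passed in MEF-1 (0 called, 6 at an unadjusted p under 0.05), against 0.137% of all genes tested. Cdkn1a came closest, with the clones lower than the parental line by a fitted -2.04 (SE 0.46, limma adjusted p = 0.0868), and Ccng1 was -0.73 (adjusted p = 0.0904) and Bax -0.65 (adjusted p = 0.0988). Eda2r, at -2.76, had an adjusted p of 0.209 in the same limma fit. In MEF-2 likewise 0 were called and 0 had an unadjusted p under 0.05 (lowest limma adjusted p 0.726), against 0.582% of all genes tested. For the difference between MEF-2 and MEF-1 in the step from parental to clonal lines, 0 were called and 4 had an unadjusted p under 0.05, with Ccng1 lowest (1.05, limma adjusted p = 0.112), against 0.275% of all genes. Between the parental lines, MEF-2 minus MEF-1, the fitted difference was -2.20 for Cdkn2a and -1.40 for Cdkn2b. For the p53 target genes it ran from 0.15 (Sesn2) to 1.16 (Eda2r). As this sets 1 library against 1, only the size of the difference is given.

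Among clones of 1 parental line the genes varied to different degrees. Each SD was placed among the SDs of protein-coding genes of like expression. Cdkn1a (SD 0.53 in MEF-1 and 0.40 in MEF-2) stood at the 94.8th and 93.5th percentile, Sesn2 (0.35 and 0.38) at the 91.1st and 94.0th, and Eda2r (0.68 and 1.39) at the 85.3rd and 98.7th. Ccng1 went from the 12.5th percentile in MEF-1 (SD 0.083) to the 82.3rd in MEF-2 (SD 0.22), and Mdm2 from the 32.4th (0.11) to the 82.8th (0.23). Zmat3 was among the less variable, at the 25.2nd and 59.3rd percentile. The SD was larger in MEF-2 than in MEF-1 for 8 of the 10 genes, the exceptions being Cdkn1a and Phlda3, against 36.6% of all genes tested, but for only 5 of the 10 when MEF-2 clone 3 was left out.

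Counted over the 8 p53 target genes, some clones stood at an end of their set repeatedly. MEF-2 clone 4 was above the median of the MEF-2 clones for 8 of the 8 p53 target genes and highest for 4 of them, among them Cdkn1a (12.73) and Mdm2 (12.90). MEF-2 clone 3 was lowest for 4, Cdkn1a (11.58), Mdm2 (12.30), Sesn2 (12.11) and Bax (12.10). On the MEF-1 side clone 2 was lowest for 4 (Mdm2, Sesn2, Bax and Eda2r) but highest for 2 (Ccng1 and Zmat3), and clone 7 was lowest for 3 (Cdkn1a, Ccng1 and Phlda3), while clone 6 was above the median for 6. MEF-1 clone 7, with the lowest Cdkn1a (8.66), had the highest Cdkn2a (13.70) and the highest Eda2r (7.79) of its set.

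As a description of this covariation, Pearson's r over the 14 clonal lines, with MEF-1 and MEF-2 each centred on its mean, was 0.72 between Cdkn1a and Bax, 0.72 with Sesn2, 0.66 with Mdm2, 0.66 with Ccng1 and 0.64 with Phlda3. It was -0.11 between Cdkn1a and Zmat3 and -0.29 between Cdkn1a and Eda2r. Cdkn2a and Cdkn2b, although neighbours, had an r of -0.052, and Cdkn2a and Cdkn1a one of -0.25. The values of a line come from 1 library, which all genes share. Over 13123 genes, those most like Cdkn1a were Stbd1 (0.93), Ehbp1l1 (0.92) and Slc27a4 (0.90), on other chromosomes. For Mdm2 they were Ube2g2 (0.92), Eid3 (0.91) and Tmtc3 (0.90), all of chromosome 10 like Mdm2 itself. Cdkn2a was most like Spag1 (0.86), Syndig1 (0.78) and Fbxl18 (0.75), and Cdkn2b most like Fbln5 (0.85), Zbtb34 (0.84) and Cyp2c23 (0.84).

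The 10 genes were next set beside other genes of the same pathways, from lists written from general knowledge. Of 40 further p53 target genes 37 were tested, of which 19 were higher in MEF-2 clonal lines, 3 were lower and 15 did not pass, with a median difference of 0.29, against -0.0043 over all genes tested. The called share of 59.5% was near the 56.1% of all genes, while 51.4% were higher and 8.11% lower, against 27.5% and 28.6%. The higher ones included Gdf15, a stress-induced secreted factor (2.50), Pmaip1, which encodes the BH3-only protein NOXA (1.88), and Pidd1, a death domain adaptor of caspase 2 (1.65). Also among them were Psrc1 (1.74), Inka2 (1.50), Lif (1.33), the thiamine transporter gene Slc19a2 (1.15) and the nuclease gene Aen (0.94), with limma adjusted p from 3.46e-09 for Pidd1 to 0.0121 for Lif. The 3 lower were the receptor tyrosine kinase gene Epha2 (-1.23, limma adjusted p = 4.34e-05), Sesn1, the sestrin paralogue of Sesn2 (-0.50, adjusted p = 0.0026), and the death receptor gene Fas (-0.44, adjusted p = 0.0101). Fas lost its call when the chromosome median of each line was subtracted (-0.072, limma adjusted p = 0.652). Fas lies on chromosome 19 and Pmaip1 on chromosome 18. From read coverage the paper proposes loss of chromosome 18 in some or all MEF-1 lines and reports chromosome 19 as aneuploid. Beyond this subtraction, the part of chromosome copy number in these differences was not tested.

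**Figure D4:**
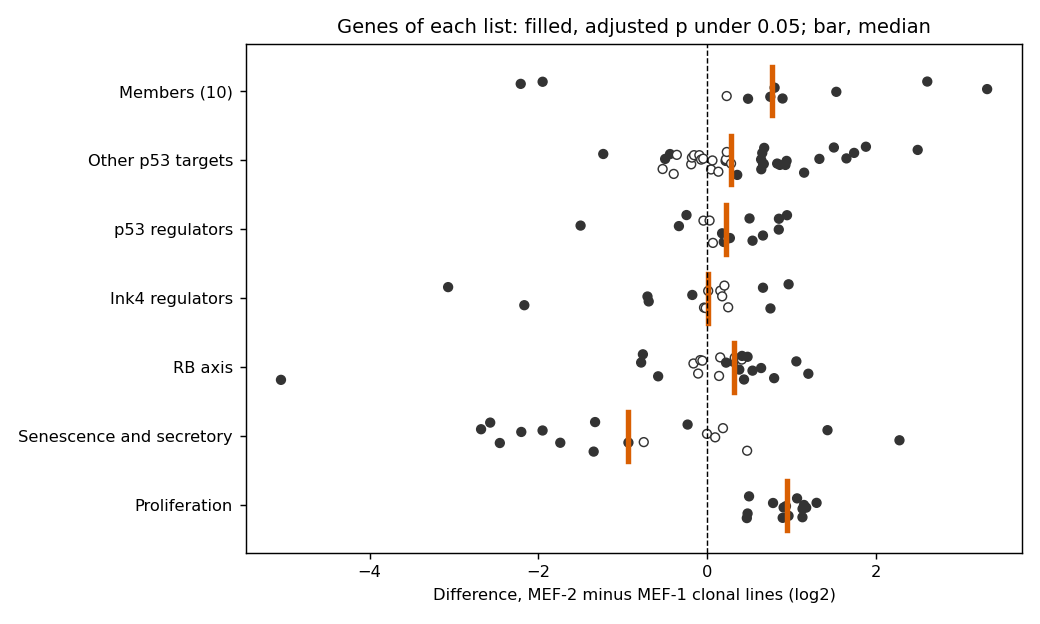
MEF-2 minus MEF-1 difference of the clonal lines (horizontal axis, log2) for each tested gene of 7 lists (vertical axis), with filled points for a limma adjusted p under 0.05 and a bar at the median of the list. Of the proliferation genes all 14 lie to the right of 0, most senescence and secretory genes lie to the left, and the Ink4 regulators lie on both sides with a median near 0.

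Of the 16 regulators of p53, Trp53 and Mdm4 included, 9 were higher, 3 lower and 4 not called. Of the list, 75% was called, against 56.1% of all genes tested. Among the higher were the DNA damage kinases Chek2 at 0.85 (limma adjusted p = 4.90e-05) and Atm at 0.66 (adjusted p = 1.37e-07), whereas the related kinase Atr was at 0.070 (adjusted p = 0.224). Also higher was Ppp1r13l, the gene of the p53 inhibitor iASPP (0.85, adjusted p = 6.42e-07). The lower were the p53 family gene Trp63 (-1.50), the acetyltransferase gene Ep300 (-0.33) and Usp7, a deubiquitinase of MDM2 and p53 (-0.24), with limma adjusted p from 9.02e-06 to 0.000598.

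Of 15 regulators of the Ink4 locus, 3 were higher (20%), 5 lower (33.3%) and 7 not called, near the 27.5% and 28.6% of all genes tested, with a median difference of 0.014. The largest was in Cbx7, a Polycomb protein gene known to repress the locus, which was 8.72 ± 0.53 in MEF-1 and 5.65 ± 0.50 in MEF-2 clonal lines (SD, n = 7), a difference of -3.07 (SE 0.26, limma adjusted p = 1.70e-07). Tbx2, a T-box repressor of the locus, was likewise lower (-2.17, adjusted p = 1.89e-06), whereas its relative Tbx3 (0.75, adjusted p = 0.00149) and the Polycomb methyltransferase gene Ezh2 (0.97, adjusted p = 7.65e-06) were higher in the limma fit. Ets2 (-0.71), an activator of Cdkn2a, and Id1 (-0.69), an antagonist of such activators, were both lower, and Hmga2 (0.66) was higher. Known repressors of the locus were thus found on both sides. In the MEF-1 and MEF-2 parental lines Cbx7 was at 6.79 and 6.26 and Tbx2 at 7.30 and 6.49, closer than in the clonal lines. Tbx3 was at 9.08 and 9.97 there, and Ezh2 at 11.77 and 12.02.

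Downstream, 11 of 23 genes of the cyclin D, RB and E2F axis were higher in MEF-2, 4 were lower and 8 were not called, so that 65.2% of the list was called, against 56.1% of all genes tested. The E2F genes E2f7 (1.20) and E2f8 (1.06) and the cyclins Ccne2 (0.80) and Ccnd2 (0.64) were higher, at limma adjusted p from 0.000203 to 0.00132. Cdkn1c, an imprinted gene that encodes the kinase inhibitor p57 of the family of p21, moved opposite to Cdkn1a between the clonal lines. It was 12.77 ± 0.86 in MEF-1 and 7.71 ± 0.43 in MEF-2 clonal lines (SD, n = 7), a difference of -5.05 (SE 0.33, limma adjusted p = 1.26e-08). In the parental lines Cdkn1c was 10.77 (MEF-1) and 8.90 (MEF-2), both between the clonal sets. Cdkn2c, which encodes another Ink4 protein, p18, from a separate place on chromosome 4, was lower by 0.58 on the log2 scale (limma adjusted p = 0.000391), as were E2f1 (-0.78) and Rbl2 (-0.76).

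All 14 proliferation genes were higher in MEF-2 clonal lines, against 27.5% of all genes tested, with a median difference of 0.95. MEF-2 clonal lines were also those with the higher Cdkn1a. The MEF-1 parental line was above all 7 of its clones for all 14, as it was for 6 of the p53 target genes. Of all genes tested this share was 20.2%, and of genes called higher in MEF-2 it was 42.1%. The MEF-2 parental line lay within its clones for all 14. Ccna2, for instance, was 12.85 in the MEF-1 parental line and at most 12.44 in its clones. Cdc25c (1.30), Mki67 (1.18), Bub1 (1.15) and Ccna2 (1.13) were the largest, with limma adjusted p from 0.00027 to 0.00115. Of 20 genes of the senescence-associated secretory and nuclear programme 17 were tested. Of these, 10 were lower (58.8%) and 2 higher (11.8%), against 28.6% and 27.5% of all genes tested. A further 5 did not pass, and the median of the list was -0.93. The lower ones included Ccl7 (-2.68), Cxcl1 (-2.57), Mmp3 (-2.46) and Igfbp3 (-2.20), at limma adjusted p up to 9.77e-05. Mmp3 and Igfbp3 had low values, with MEF-2 clones at 1.76 to 1.92 and 1.91 to 2.19. The MEF-1 parental line was below all 7 of its clones for 7 of the 17 genes and above all for 4. Of all genes tested these shares were 20.8% and 20.2%, and of genes called lower in MEF-2 the share below all was 39.9%. The MEF-2 parental line lay within its clones for 15 of the 17. Lmnb1, the lamin B1 gene that senescent cells lose, was higher (1.43, limma adjusted p = 1.77e-05), as was the protease inhibitor gene Serpine2 (2.28, limma adjusted p = 0.000473). Lmnb1 and Cdc25c lie on chromosome 18, for which the paper proposes loss in some or all MEF-1 lines. Beyond the subtraction of chromosome medians, the part of that loss in their values was not tested. The part of proliferation rate in the levels of the 10 genes was not tested.

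Gene positions and shared sequence set limits for 3 of the genes. Sesn2 and Bax overlap Gm12981 and Gm45808 on the same strand, whose mean log2 values of 4.34 and -1.03 may share fragments with them. Cdkn1a overlaps AC167363.2 on the opposite strand (mean 0.78), and the libraries were made with a directional kit.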

How the data were processed

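Total RNA of 16 lines was depleted of rRNA and sequenced as directional paired-end libraries, 1 per line, with a fragmentation time set by RNA integrity, which is not given per line. Per the labels, the authors used Trim Galore 0.6.0, Salmon 1.5.2 against mm10 and DESeq2 1.24.0, and deposited rlog values, which are on the log2 scale. The step from transcripts to genes and the setting of the transformation (blind or not) are not given in the sources used here. No counts were used, so that depth is unknown. Genes were matched to GENCODE M21 (mm10), where 253 of 54453 had no entry.

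Protein-coding genes with a mean above 0 were fitted with limma 3.58.1 (R 4.3.3, trended prior, Benjamini-Hochberg, adjusted p under 0.05) for 7 MEF-2 against 7 MEF-1 clonal lines, and in 4 groups for clonal against parental lines. In data simulated for the first comparison, 170 of 200 genes changed by 1 (log2) among 15285 were called, with 11 unchanged ones. Alternatives were other filters, all gene types, no trend, centring on autosomal or chromosome medians, adding parental lines, a clone number block and leaving out each clone.

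The 10 genes and the lists were chosen with earlier results of these data known. Named beside them were Trp53, Mdm4, up to 4 called genes in each direction per list with the largest difference (8 for p53 targets), the genes within 1 Mb of the Ink4 locus and the 3 genes most like each of Cdkn2a, Cdkn2b, Cdkn1a and Mdm2. Marker genes and overlapping genes were named outside this rule. DNA methylation data were not analysed here.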

Additional observations from a re-analysis of the deposited data

Results flagged for a closer look

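Of 24 sets of 7 clonal values (the 10 genes, Trp53 and Mdm4, in MEF-1 and in MEF-2), 4 held a line set apart from the others by Dixon's test, where chance gives about 1 in 20, or 1.2. Eda2r in MEF-2 clone 2 was 6.81, the nearest other MEF-2 clone being at 10.14, a gap of 0.82 of the whole range. Cdkn2a in MEF-1 clone 7 was 13.70, with the nearest clone at 13.37 (gap 0.59 of the range). Mdm4 was 11.88 in MEF-1 clone 5, the lowest of its set, with the nearest clone at 12.23 (gap 0.63). It was 12.90 in MEF-2 clone 6, the highest of its set, with the nearest at 12.80 (gap 0.63). Mdm4 lies on chromosome 1, where the median of 729 genes was lowest in MEF-1 clone 5, at -0.16 against the mean of the clonal lines. The part of this shift in the Mdm4 value was not tested.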

How the results depend on the processing

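Each of the 10 genes kept its direction and its side of the threshold, MEF-2 against MEF-1 clones, in 22 of 22 alternatives, and Sesn2 stayed without a call, with adjusted p from 0.116 to 0.467 in limma. Leaving out a clone moved the genes called from 3893 to 4271 higher and 4129 to 4402 lower. Of the p53 targets, 3 to 5 were lower when a clone was left out (5 without MEF-1 clone 2), and 5 with all gene types. Near the Ink4 locus, the genes higher in MEF-2 numbered 1 with all gene types, 1 without a trend, 1 with parental lines added, 0 with lines centred (2 with unadjusted p under 0.05) and 0 to 2 with a clone left out, and those lower numbered 2 above the 40th percentile, where fewer genes were tested. Genes called between clonal and parental lines, 21 in MEF-1, became 131 with no filter, 11 above the 40th percentile and 33 with lines centred. In MEF-2 the 89 became 147 with no filter, and for the difference between the sets 42 became 85. The cause was not tested. Sesn2, without a call, changed from 0.0025 to -0.013 (log2) between MEF-2 clonal and parental lines when chromosome medians were subtracted. The count of genes with a larger SD in MEF-2 was 5 to 9 with a clone left out. With clone number as a replicate block, 4025 genes were higher and 4201 lower, and the calls of the 10 genes did not change. The deviations of same-numbered clones correlated at -0.13 to 0.20, and a number shared by a MEF-1 and a MEF-2 clone marks separate cells, so that the numbers do not pair the lines. With no counts, low values cannot be told from an absence of reads.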
